A study of Mus musculus with 4 samples.

Results

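The genes described here are the integrins, the cell surface receptors for extracellular matrix, and the core proteins that couple them to the actin cytoskeleton at focal adhesions. They were chosen by gene symbol, with earlier results of these data known. The members are every alpha and beta integrin chain named Itga or Itgb with a number, together with Itgav, Itgal, Itgam, Itgax and Itgae, and 14 cytoplasmic genes (Ptk2, Pxn, Vcl, Tln1, Tln2, Zyx, Ilk, Parva, Lims1, Lims2, Fermt2, Tns1, Tgfb1i1 and Actn1). This gave 40 genes of the 22488 in the deposited tables, of which 17 are alpha chains, 9 are beta chains and 14 belong to the cytoplasmic core. Expression was measured by RNA sequencing in cultured vascular smooth muscle cells from C57BL/6 mice at passages 4 to 10. The cells had been transfected for 48 hours with circEsyt2 siRNA, which targets the circular RNA circEsyt2 (2 libraries), or with scramble siRNA (2 libraries). All 4 libraries come from transfected cells. Whether replicates are separate cultures is not stated, and the p-values below therefore reflect a spread that may be technical.

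An integrin is a pair of an alpha and a beta chain, and the pair decides which matrix protein is bound. Binding of talin and kindlin to the beta chain's tail switches the receptor on, and vinculin, tensin and alpha-actinin then tie it to actin filaments. Paxillin and focal adhesion kinase signal from the same sites, and the kinase-like protein ILK sits there in a complex with PINCH (the Lims1 and Lims2 products) and parvin. In vascular smooth muscle these contacts transmit force to the matrix, and the fibronectin receptor alpha5 beta1 and receptors with the alphaV chain are known for roles in adhesion and migration.

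The authors deposited FPKM values, in which a gene's reads are divided by its length and by the library's total. The totals recovered from the values were 3765056 and 3127224 counted reads in the circEsyt2 siRNA libraries and 2516428 and 4116791 in the scramble libraries. In every library, genes with 2 counted reads outnumbered genes with 1 (1467 against 424 and 1876 against 424 with circEsyt2 siRNA, 1780 against 715 and 1578 against 673 with scramble siRNA), so a sequenced fragment may have been counted as 2 reads. The host gene Esyt2 had 40.6 and 48.7 FPKM with circEsyt2 siRNA and 53.4 and 50.6 FPKM with scramble siRNA (limma, adjusted p = 0.318), a row that covers all exons and does not check the circle. Smooth muscle markers were above 0 in every library. Their summed level over 12 genes was 1279 and 1166 FPKM with circEsyt2 siRNA and 2181 and 2254 FPKM with scramble siRNA. Of the 10 tested ones 9 were called lower, against 7.26% of all genes tested. Fibroblast markers summed to 665 and 754 FPKM with circEsyt2 siRNA and 942 and 850 FPKM with scramble siRNA, and 3 of the 9 tested ones were called lower. The library circEsyt2 siRNA replicate 1 stood apart. Its 15 hepatocyte markers summed to 3572 FPKM (0.784% of its reads), against 115 FPKM in circEsyt2 siRNA replicate 2 and 16.3 and 8.48 FPKM in the scramble libraries, where 4 of the 15 were at 0 in each. Their part in the results was not tested. Values without circEsyt2 siRNA replicate 1 are given below, and they still include replicate 2, whose sum was above both scramble libraries.

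Of the 40 members, 27 had a mean of at least 1 FPKM over the 4 libraries and were tested, and 5 of these passed the test in limma at an adjusted p under 0.05. Itgb1 and Fermt2 rose with circEsyt2 siRNA, and Itgav, Tns1 and Vcl fell. The 5 are 18.5% of the tested members, against 12.7% of all 11290 genes tested. As the members were chosen with earlier results of these data known, this and the shares below are descriptions only. By direction, 2 of 27 rose, against 5.47% of all genes, and 3 of 27 fell, against 7.26%. The median log2 fold change over the tested members was −0.06, against 0.00 over all tested genes, with 13 members above 0 and 14 below, and the middle part of the members (lower to upper quartile) ran from −0.60 to 0.31, against −0.34 to 0.33 for all genes. In 10 of the 27 members both circEsyt2 siRNA libraries lay above both scramble libraries, against 29.7% of all genes, and in 12 both lay below, against 31.1%. At an unadjusted p under 0.05, 12 of the 27 stood out, 6 higher (14.2% of all genes) and 6 lower (15.9% of all genes), where 30.1% of all genes did in either direction.

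**Figure D1:**
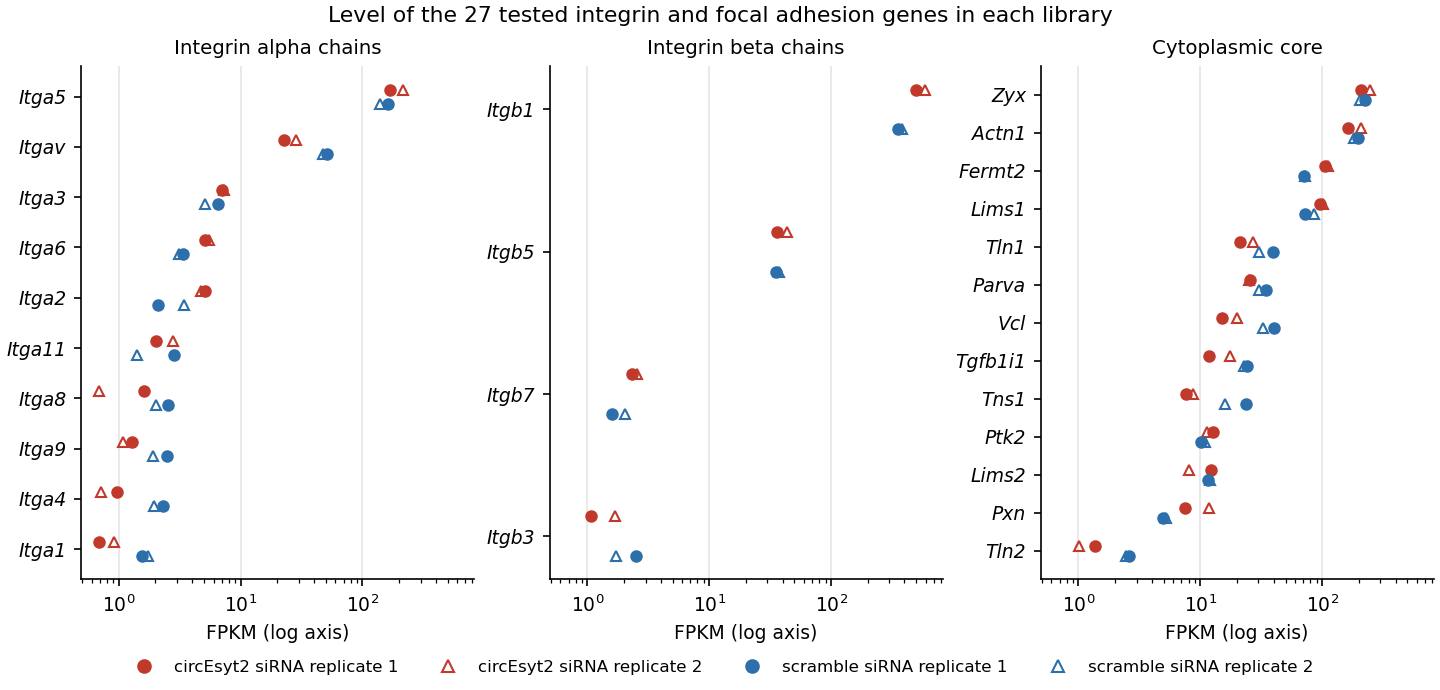
FPKM on a log axis for the 27 tested members in each of the 4 libraries, by class, with the genes ordered by mean level and the circEsyt2 siRNA points drawn above the scramble points. Itgb1 and Itga5 stand far above the other chains, and the circEsyt2 siRNA points of Itgav, Vcl and Tns1 lie left of the scramble points.

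Among the alpha chains, Itgav, the alphaV chain of receptors for vitronectin and other proteins with an RGD motif, was the member that fell. It lies at chr2:83724397-83806916 on the plus strand of GRCm38. Itgav had 22.9 and 28.7 FPKM with circEsyt2 siRNA and 51.5 and 47.5 FPKM with scramble siRNA, so the groups were well apart. Its mean was 1.92-fold lower, at 25.8 ± 4.08 FPKM with circEsyt2 siRNA and 49.5 ± 2.82 FPKM with scramble siRNA (SD, n = 2 each). The log2 fold change of Itgav, here and below on the log2(FPKM + 1) scale, was −0.92 (SE 0.15; limma, Benjamini-Hochberg adjusted p = 0.0173). It was −0.77 without circEsyt2 siRNA replicate 1 and −1.08 without circEsyt2 siRNA replicate 2. The adjusted p was 0.0373 without replicate 1 when the filter on low values used the 3 remaining libraries, and 0.0785, which did not pass, when the filter over all 4 libraries was kept. Without replicate 2 it was 0.0452.

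Itga5, the alpha5 chain of the fibronectin receptor, was the most abundant alpha chain at FPKM rank 222 of 11290. It had 167 and 215 FPKM with circEsyt2 siRNA and 162 and 139 FPKM with scramble siRNA. Both circEsyt2 siRNA libraries were above both scramble libraries, but replicate 1 only slightly. The log2 fold change of Itga5 was 0.33 (SE 0.15; 95% interval −0.04 to 0.71; adjusted p = 0.208), which did not pass. The remaining RGD-binding alpha chain with a tested level, Itga8, had 1.62 and 0.694 FPKM with circEsyt2 siRNA and 2.53 and 2.01 FPKM with scramble siRNA (adjusted p = 0.278).

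The collagen-binding alpha chains were low and lay on both sides of 0. Itga2 had 5.10 and 4.75 FPKM with circEsyt2 siRNA and 2.12 and 3.41 FPKM with scramble siRNA (log2 fold change 0.68, adjusted p = 0.129). Itga1, which encodes the alpha1 chain found on smooth muscle, had 0.685 and 0.911 FPKM with circEsyt2 siRNA and 1.56 and 1.74 FPKM with scramble siRNA (log2 fold change −0.56, adjusted p = 0.317). The groups did not overlap in either gene, in opposite directions, and neither passed. Itga11 overlapped between groups, with 2.02 and 2.80 FPKM with circEsyt2 siRNA and 2.87 and 1.42 FPKM with scramble siRNA.

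Of the laminin-binding alpha chains, Itga3 had 7.07 and 7.28 FPKM with circEsyt2 siRNA and 6.47 and 5.15 FPKM with scramble siRNA (log2 fold change 0.27, 95% interval −0.17 to 0.71, adjusted p = 0.359). Itga6 had 5.15 and 5.53 FPKM with circEsyt2 siRNA and 3.39 and 3.12 FPKM with scramble siRNA (log2 fold change 0.57, adjusted p = 0.103). The circEsyt2 siRNA libraries were the higher ones in Itga3 and Itga6, without passing the test. Itga7, another laminin-binding chain, was too low to be tested and lay the other way. It had 0.263 and 0.395 FPKM with circEsyt2 siRNA and 0.589 and 0.600 FPKM with scramble siRNA, on 8 to 20 counted reads. Itga4 and Itga9, related chains that bind VCAM-1, fibronectin variants or tenascin, were lower in both circEsyt2 siRNA libraries. Itga4 had 0.969 and 0.709 FPKM with circEsyt2 siRNA and 2.30 and 1.96 FPKM with scramble siRNA (adjusted p = 0.170). Itga9 had 1.28 and 1.08 FPKM with circEsyt2 siRNA and 2.48 and 1.93 FPKM with scramble siRNA (adjusted p = 0.268). On recovered read numbers, limma's voom also called Itga1 (log2 fold change −1.08, adjusted p = 0.0282), Itga4 (−1.29, adjusted p = 0.020) and Itga6 (0.73, adjusted p = 0.0381). Voom called 18.3% of the 10820 genes it tested.

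Among the beta chains, Itgb1, the beta1 chain that pairs with most alpha chains, was the member that rose. It ranked 55 of 11290 by mean FPKM and lies at chr8:128685654-128733200 on the plus strand. Itgb1 had 493 and 587 FPKM with circEsyt2 siRNA and 355 and 382 FPKM with scramble siRNA, on 3648 to 7571 counted reads per library. The mean was 1.46-fold higher, at 540 ± 66.8 FPKM with circEsyt2 siRNA and 369 ± 19.1 FPKM with scramble siRNA (SD, n = 2 each), with a log2 fold change of 0.54 (SE 0.12; limma adjusted p = 0.0368). The call is close to the threshold. It was lost with no filter on low values (adjusted p = 0.0833) and without circEsyt2 siRNA replicate 2 (log2 fold change 0.42, adjusted p = 0.107). Without circEsyt2 siRNA replicate 1 the log2 fold change was 0.67, with an adjusted p of 0.0263 under the filter over the 3 remaining libraries and 0.0770, which did not pass, under the filter over all 4.

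Itgb5, which pairs with alphaV in a vitronectin receptor, had 36.2 and 43.2 FPKM with circEsyt2 siRNA and 35.6 and 37.2 FPKM with scramble siRNA. The groups overlapped, and the log2 fold change was 0.12 (SE 0.13; 95% interval −0.21 to 0.45; adjusted p = 0.592). Itgb3, another partner of alphaV, had 1.08 and 1.68 FPKM with circEsyt2 siRNA and 2.49 and 1.73 FPKM with scramble siRNA (log2 fold change −0.39, adjusted p = 0.457). Itgb7, a chain known from lymphocytes, had 2.30 and 2.54 FPKM with circEsyt2 siRNA and 1.58 and 2.02 FPKM with scramble siRNA, on 11 to 24 counted reads (log2 fold change 0.29, SE 0.26, adjusted p = 0.498). None of these 3 beta chains passed.

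**Figure D2:**
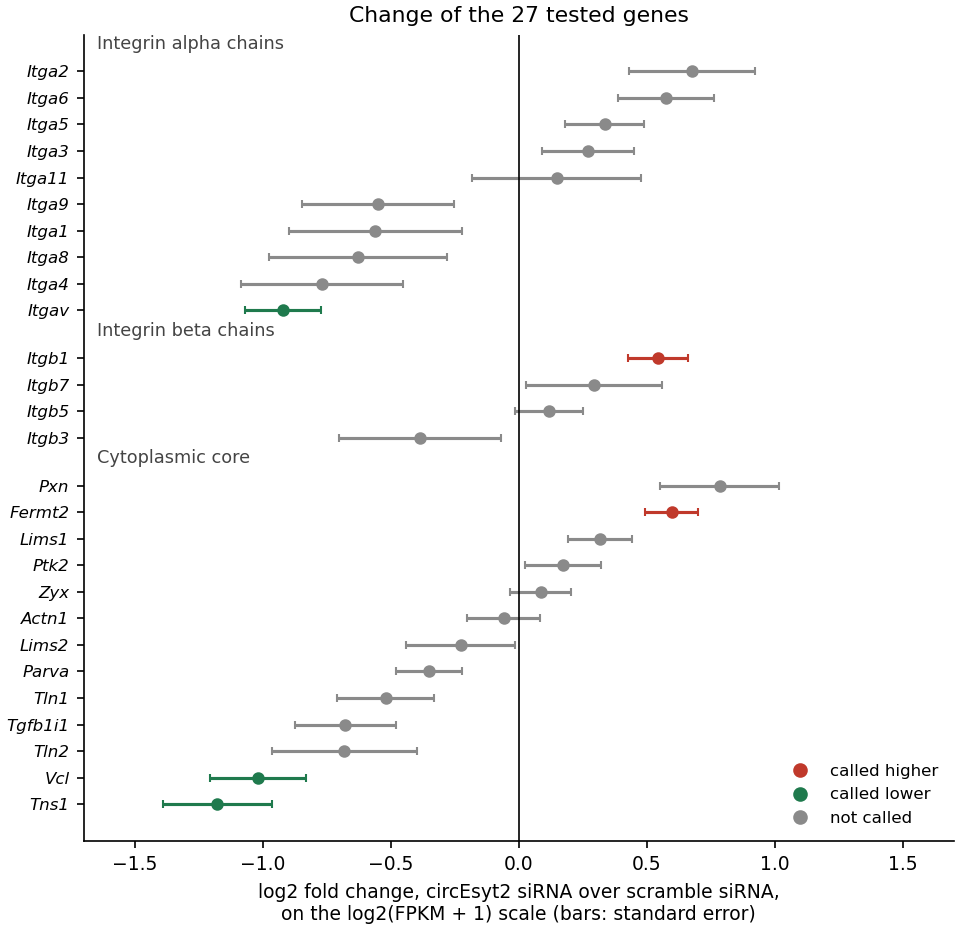
Log2 fold change of each tested member, circEsyt2 siRNA over scramble siRNA, with its standard error, by class. Itgb1 and Fermt2 are marked as higher and Itgav, Vcl and Tns1 as lower, and the grey members that did not pass lie on both sides of 0.

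FPKM divides by gene length, which allows a rough comparison between chains within a library. The length that fits the values is that of all exons of a gene joined (10744 bases for Itgav, 4933 for Itga5). The expressed transcript can be shorter, so shares are not exact levels. Shares and ratios were chosen after the values were seen and are given as descriptions. Itga5 made up 77.1% and 80.1% of the summed alpha chain FPKM with circEsyt2 siRNA and 67.9% and 66.4% with scramble siRNA. Itgav made up 10.6% and 10.7% with circEsyt2 siRNA and 21.6% and 22.8% with scramble siRNA. The ratio of Itga5 to Itgav was thus 7.30 and 7.49 with circEsyt2 siRNA and 3.15 and 2.92 with scramble siRNA, close within each group and far apart between groups. Such a ratio does not depend on how the libraries are scaled, and it shows unequal change, not which chain moved. The summed alpha chain FPKM was 217 and 268 with circEsyt2 siRNA and 239 and 209 with scramble siRNA, with overlap. The summed beta chain FPKM was 535 and 636 with circEsyt2 siRNA and 397 and 426 with scramble siRNA, nearly all of it Itgb1 (92.1% and 92.3% with circEsyt2 siRNA, 89.4% and 89.8% with scramble siRNA).

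**Figure D3:**
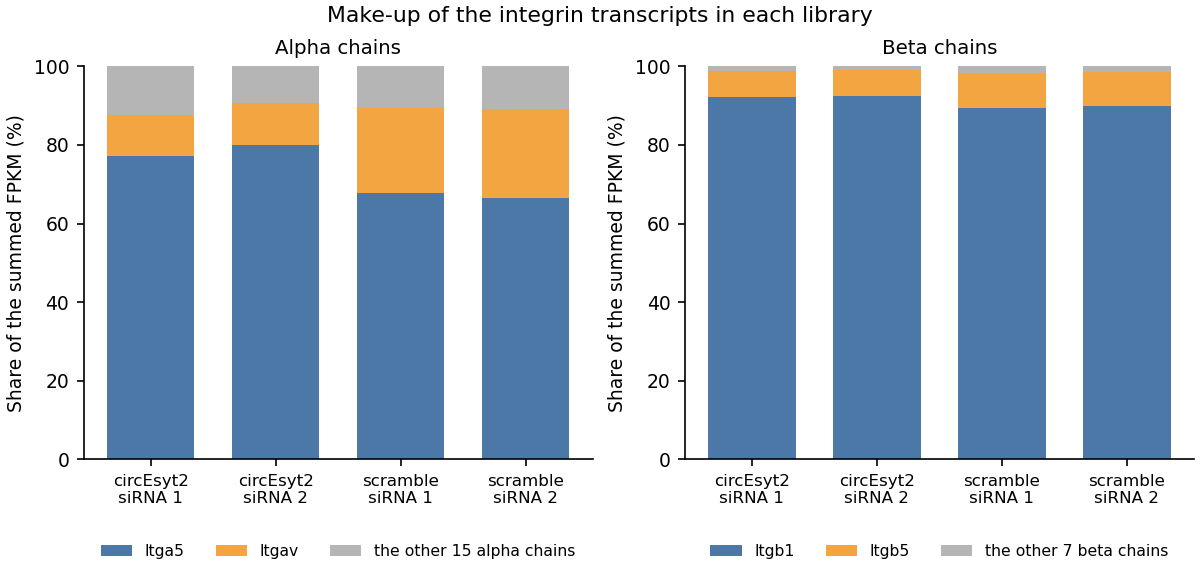
Share of the summed FPKM (%) of all alpha chains (left) and all beta chains (right) taken by the leading genes, 1 bar per library. The Itgav share is about 10.6% in the circEsyt2 siRNA libraries and over 21% in the scramble libraries, while Itgb1 makes up most of the beta chain FPKM in all 4.

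In the cytoplasmic core, the genes for the proteins that switch integrins on lay on both sides of 0, and only Fermt2 passed. Fermt2, the gene for kindlin-2, rose. It lies at chr14:45458795-45530118 on the minus strand and had 105 and 112 FPKM with circEsyt2 siRNA and 70.3 and 72.3 FPKM with scramble siRNA. Its mean was 1.52-fold higher, at 108 ± 5.38 FPKM with circEsyt2 siRNA and 71.3 ± 1.43 FPKM with scramble siRNA (SD, n = 2 each), and the log2 fold change was 0.60 (SE 0.10; limma adjusted p = 0.0211). The call of Fermt2 was lost without circEsyt2 siRNA replicate 2 (adjusted p = 0.0793). Without replicate 1 its adjusted p was 0.0375 under the filter over the 3 remaining libraries and 0.0753, which did not pass, under the filter over all 4. Tln1, the gene for talin-1, had 21 and 26.9 FPKM with circEsyt2 siRNA and 39.5 and 30.1 FPKM with scramble siRNA (log2 fold change −0.52, SE 0.19, adjusted p = 0.132). Tln2, for talin-2, had 1.37 and 1.01 FPKM with circEsyt2 siRNA and 2.58 and 2.43 FPKM with scramble siRNA (adjusted p = 0.175), and voom called it lower (adjusted p = 0.0165). Both talin genes lay lower in both circEsyt2 siRNA libraries without passing limma's test, and the ratio of Fermt2 to Tln1 was 4.99 and 4.17 with circEsyt2 siRNA and 1.78 and 2.40 with scramble siRNA.

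The actin-linking members Vcl and Tns1 fell. Vcl encodes vinculin and lies at chr14:20929398-21033676 on the plus strand. It had 15 and 20.0 FPKM with circEsyt2 siRNA and 40.5 and 32.5 FPKM with scramble siRNA, on 464 and 513 against 835 and 1095 counted reads. The mean of Vcl was 2.08-fold lower, at 17.5 ± 3.52 FPKM with circEsyt2 siRNA and 36.5 ± 5.68 FPKM with scramble siRNA (SD, n = 2 each), with a log2 fold change of −1.02 (SE 0.19; limma adjusted p = 0.0242). Of the Vcl exon length 25.5% overlaps Ap3m1 on the other strand, which had 14.7 and 12.1 FPKM with circEsyt2 siRNA and 19.0 and 17.9 FPKM with scramble siRNA and did not pass (adjusted p = 0.120). Without a stated strand setting the reads of such shared exons cannot be told apart.

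Tns1, the gene for tensin-1, lies at chr1:73910231-74124449 on the minus strand. It had 7.56 and 8.63 FPKM with circEsyt2 siRNA and 23.7 and 16.1 FPKM with scramble siRNA. The mean of Tns1 was 2.46-fold lower, at 8.10 ± 0.752 FPKM with circEsyt2 siRNA and 19.9 ± 5.41 FPKM with scramble siRNA (SD, n = 2 each), with a log2 fold change of −1.18 (SE 0.21; limma adjusted p = 0.0228), the lowest among the 27. The calls of Vcl and Tns1 were lost without either circEsyt2 siRNA replicate, with adjusted p of 0.0571 and 0.0648 without replicate 1 and 0.0618 and 0.101 without replicate 2. The 9 smooth muscle markers and 3 fibroblast markers called lower moved in the same direction as these genes, and their part was not tested.

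Of the other actin-binding members, neither Zyx nor Actn1 passed. Zyx, the gene for the stress fibre LIM protein zyxin, had 209 and 246 FPKM with circEsyt2 siRNA and 222 and 205 FPKM with scramble siRNA (log2 fold change 0.09, SE 0.12, 95% interval −0.21 to 0.38, adjusted p = 0.661). Actn1, for alpha-actinin-1, had 162 and 207 FPKM with circEsyt2 siRNA and 198 and 184 FPKM with scramble siRNA (log2 fold change −0.06, SE 0.14, 95% interval −0.41 to 0.29, adjusted p = 0.809). The groups overlapped in both genes. The ratio of Zyx to Vcl was 13.9 and 12.3 with circEsyt2 siRNA and 5.49 and 6.32 with scramble siRNA, and that of Actn1 to Vcl was 10.7 and 10.4 with circEsyt2 siRNA and 4.89 and 5.65 with scramble siRNA.

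Pxn and Tgfb1i1 encode the related adaptors paxillin and Hic-5, and they lay on opposite sides. Pxn had 7.55 and 11.8 FPKM with circEsyt2 siRNA and 4.90 and 5.25 FPKM with scramble siRNA (log2 fold change 0.78, SE 0.23, adjusted p = 0.0803). Tgfb1i1 had 11.9 and 17.4 FPKM with circEsyt2 siRNA and 24.3 and 23.0 FPKM with scramble siRNA (log2 fold change −0.68, SE 0.20, adjusted p = 0.0774). Neither passed, whereas voom called Pxn higher (adjusted p = 0.0362) and Tgfb1i1 lower (adjusted p = 0.0246). Without circEsyt2 siRNA replicate 1 the log2 fold change was 1.07 for Pxn and −0.42 for Tgfb1i1. Without circEsyt2 siRNA replicate 2 it was 0.49 for Pxn and −0.94 for Tgfb1i1. The ratio of Pxn to Tgfb1i1 was 0.635 and 0.677 with circEsyt2 siRNA and 0.201 and 0.228 with scramble siRNA. Ptk2, the gene for focal adhesion kinase, had 12.6 and 11.3 FPKM with circEsyt2 siRNA and 10.1 and 10.8 FPKM with scramble siRNA (log2 fold change 0.17, 95% interval −0.19 to 0.54, adjusted p = 0.473).

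**Figure D4:**
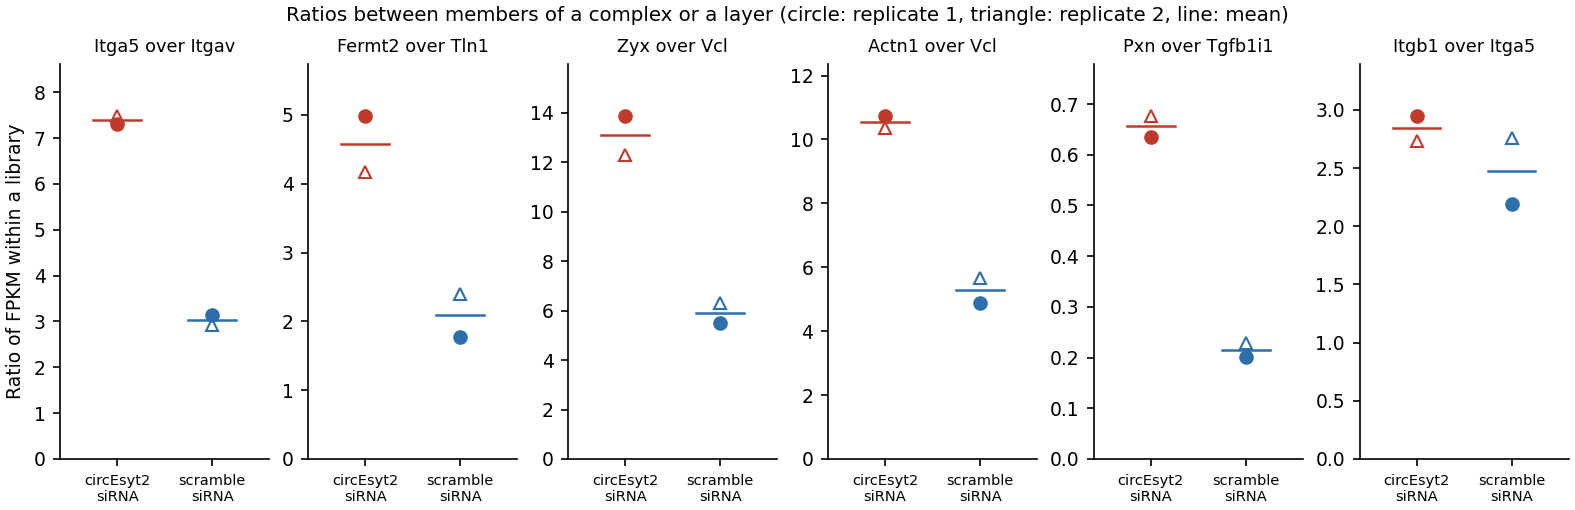
Ratio of FPKM between named members within each library, from 0, with circEsyt2 siRNA left of scramble siRNA (circle, replicate 1; triangle, replicate 2; line, mean of 2). The ratios were chosen after the values were seen and are descriptions. Itga5 over Itgav is 7.30 and 7.49 against 3.15 and 2.92, and Itgb1 over Itga5 overlaps between the groups.

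Of the complex of ILK, PINCH and parvin, Lims1, the gene for PINCH-1, had 95.4 and 101 FPKM with circEsyt2 siRNA and 71.7 and 85.7 FPKM with scramble siRNA (log2 fold change 0.32, adjusted p = 0.157). Parva, for alpha-parvin, had 25.3 and 25.1 FPKM with circEsyt2 siRNA and 34.9 and 30.2 FPKM with scramble siRNA (log2 fold change −0.35, adjusted p = 0.135). The groups did not overlap in either gene, in opposite directions, and neither passed. Lims2, for PINCH-2, overlapped between groups, with 12.2 and 8.05 FPKM with circEsyt2 siRNA and 11.6 and 12.1 FPKM with scramble siRNA (adjusted p = 0.516). Ilk itself was listed at 0.194 and 0.466 FPKM with circEsyt2 siRNA and 0 and 0.266 FPKM with scramble siRNA, on at most 4 counted reads. Of its exon length 89.7% overlaps Rrp8 or Taf10 in GENCODE M21, so the Ilk row cannot be read as the level of the transcript.

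The 13 members under the filter were Ilk, 7 alpha chains and 5 beta chains. They had at most 32 counted reads and 1.31 FPKM in any library, and 6 of them were at 0 in at least 1. Itgal, Itgam, Itgax, Itgae and Itgb2 are known from leukocytes, and Itga2b from platelets. Itgal, the alphaL chain of LFA-1, had 32 and 5 counted reads with circEsyt2 siRNA and 1 and 3 with scramble siRNA, so its highest value was that of circEsyt2 siRNA replicate 1. The 14 leukocyte markers summed to 18.6 FPKM in that library, 9.72 FPKM in circEsyt2 siRNA replicate 2 and 7.92 and 11.3 FPKM in the scramble libraries, and their part was not tested. Itgam had 0 and 0 counted reads with circEsyt2 siRNA and 0 and 4 with scramble siRNA. It shares 68.7% of its exon length with Gm49368, which was at 0 FPKM in all libraries. Itga2b had 2 and 0 reads with circEsyt2 siRNA and 2 and 11 with scramble siRNA. Of 9 platelet markers, Gp1bb and Gp5 were at 0 in all libraries. Ppbp, on the same list, had 81.18 and 77.95 FPKM with circEsyt2 siRNA and 170.26 and 194.68 FPKM with scramble siRNA. Only 1 of the 9 was tested, and it was called lower. The part of these markers was not tested. Itgb6, Itgb4 and Itgb8, known mainly from epithelial cells or as activators of TGF-beta, stayed at or under 1.01 FPKM, with 7 to 21 counted reads for Itgb6.

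Promoters of the called members were searched for motifs of factors known to act on smooth muscle and stress genes. RefSeq promoters on GRCm38.p6, from 250 bases before to 50 bases after a gene's start, were matched for 27 of the 40 members. The start is that of the promoter entry. For Fermt2 and Tns1 it is not the start in the GENCODE M21 gene coordinates given above. The CArG box, the site of serum response factor, was found in 1.63% of all 32851 promoters and in those of Vcl, Fermt2 and Itgb6. The MCAT motif CATTCC, the site of TEAD factors, was found in 14.7% of promoters and in those of Vcl, Itgb1 and Itga10. The AP-1 motif TGANTCA was found in 7.81% of promoters and in those of Zyx, Itga3, Itga9 and Itgax. The C/EBP-ATF composite motif TGATGNAA was found in 3.97% of promoters and in no member's. Both strands were searched. The promoters of Itgav and Tns1 held none of the 4 motifs in this window. The 3 called members with a match are shown 5′ to 3′ on the gene's strand, with the motif in capitals, because a gene that fell and a gene that rose both carry a CArG box.
Vcl, chr14:20929148-20929447, plus strand: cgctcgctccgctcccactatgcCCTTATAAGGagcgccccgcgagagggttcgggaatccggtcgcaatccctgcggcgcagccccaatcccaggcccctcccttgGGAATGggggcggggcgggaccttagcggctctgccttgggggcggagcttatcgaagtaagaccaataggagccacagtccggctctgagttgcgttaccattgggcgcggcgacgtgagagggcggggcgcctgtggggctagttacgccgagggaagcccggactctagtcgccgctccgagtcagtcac
Fermt2, chr14:45530016-45530315, minus strand: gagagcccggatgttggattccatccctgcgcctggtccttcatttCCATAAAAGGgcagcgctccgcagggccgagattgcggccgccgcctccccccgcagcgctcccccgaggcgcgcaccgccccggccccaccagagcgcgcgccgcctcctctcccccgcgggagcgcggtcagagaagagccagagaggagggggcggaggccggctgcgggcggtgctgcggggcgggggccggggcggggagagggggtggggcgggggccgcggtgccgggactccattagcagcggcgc
Itgb1, chr8:128685404-128685703, plus strand: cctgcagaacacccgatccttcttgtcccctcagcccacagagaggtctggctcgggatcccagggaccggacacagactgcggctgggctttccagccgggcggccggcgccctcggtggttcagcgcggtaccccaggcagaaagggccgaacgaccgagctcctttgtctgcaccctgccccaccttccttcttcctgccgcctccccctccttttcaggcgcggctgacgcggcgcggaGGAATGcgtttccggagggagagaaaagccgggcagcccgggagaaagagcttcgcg
The CArG box lies 227 to 218 bases before the start of Vcl and 204 to 195 bases before that of Fermt2, and the MCAT match lies 143 to 138 bases before the start of Vcl and 7 to 2 bases before that of Itgb1, on the opposite strand in both. A match describes the sequence and not a bound site.

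Other genes of the adhesion pathway were read from 4 lists. Of 33 tested integrin ligands, 3 rose and 11 fell (42.4% called, median log2 fold change −0.25). That list holds matrix proteins and also cell surface ligands such as Icam1 and Vcam1, which both fell. Of 40 genes of integrin activation and signalling 3 rose and 5 fell (20.0%, 0.02). Of 36 actin linkers and LIM proteins 3 rose and 6 fell (25%, −0.13), and of 22 other matrix receptors and tetraspanins 3 rose and 4 fell (31.8%, −0.22). All 4 shares lie above the 12.7% over all genes, and each list has calls in both directions. The lists were chosen with earlier results of these data known, so the shares are descriptions only. Among the ligands Ctgf, a matricellular protein that binds integrins, had 781 and 870 FPKM with circEsyt2 siRNA and 345 and 387 FPKM with scramble siRNA (log2 fold change 1.17, adjusted p = 0.00467). Icam1, a ligand of leukocyte integrins, had 2.80 and 2.79 FPKM with circEsyt2 siRNA and 12.2 and 10.6 FPKM with scramble siRNA (log2 fold change −1.71, adjusted p = 0.00508). Col6a1, a collagen VI chain gene, fell by 1.62 on the log2 scale (adjusted p = 0.00453).

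Of the signalling genes Ptpn12, a phosphatase that acts on p130Cas, had 83.3 and 81.2 FPKM with circEsyt2 siRNA and 41.9 and 34.1 FPKM with scramble siRNA (log2 fold change 1.10, adjusted p = 0.00845). Fyn, a Src family kinase gene, rose by 0.86 on the log2 scale (adjusted p = 0.0137). Of the actin linkers, Ajuba, a LIM protein gene, had 31.5 and 47.7 FPKM with circEsyt2 siRNA and 6.98 and 8.66 FPKM with scramble siRNA (log2 fold change 2.18, adjusted p = 0.00519). Palld, the gene for the actin cross-linker palladin, had 27.4 and 26.8 FPKM with circEsyt2 siRNA and 62.2 and 67.9 FPKM with scramble siRNA (log2 fold change −1.23, adjusted p = 0.00474). Csrp1, for a LIM protein of smooth muscle, fell by 1.05 (adjusted p = 0.00470). Of the other receptors, Slc3a2, whose product CD98 binds beta1 chains and carries amino acid transporters, rose by 1.23 (adjusted p = 0.0131), and Sdc4, for the fibronectin co-receptor syndecan-4, and Cd9, for a tetraspanin, fell by 0.91 and 0.77 (adjusted p = 0.00836 and 0.0142).

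With 2 libraries per group the calls rest on few samples. When scramble replicate 1 was left out limma made 0 calls in the whole table (1959 genes had an unadjusted p under 0.05), and when scramble replicate 2 was left out it also made 0 (2231 genes). All 5 member calls were lost in these fits, and also without circEsyt2 siRNA replicate 1 when the filter over all 4 libraries was kept. The log2 fold changes of the 5 kept their sign in all 12 alternative fits. They ranged from −1.08 to −0.77 for Itgav, from 0.42 to 0.67 for Itgb1, from 0.55 to 0.65 for Fermt2, from −1.45 to −0.91 for Tns1 and from −1.22 to −0.83 for Vcl.

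**Figure D5:**
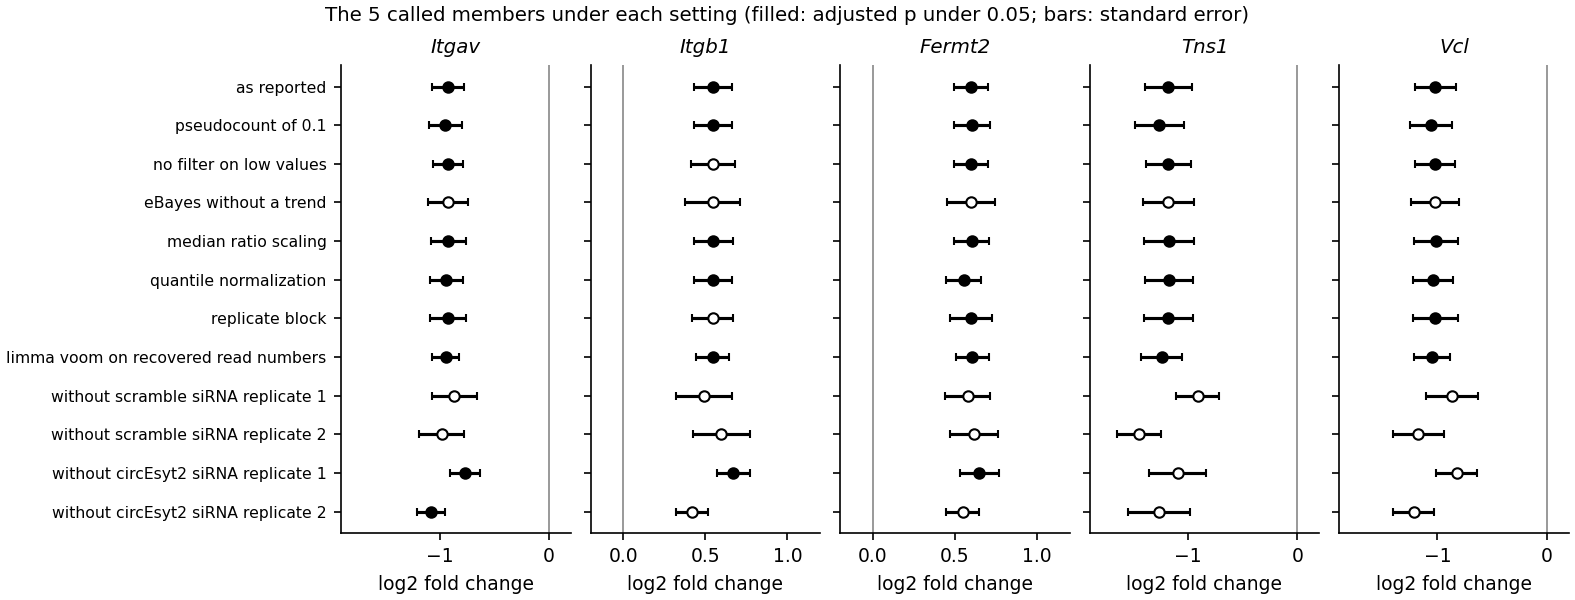
Log2 fold change of the 5 called members as reported and under 11 other settings, with standard errors, filled where the adjusted p was under 0.05. Every point keeps its side of 0, and the points without a scramble library are open for all 5 genes.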

How the data were processed

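RNA from mouse vascular smooth muscle cells was made into double-stranded cDNA and libraries with a TruePrep kit, per the labels' protocols. The submitters' processing notes list Trimmomatic, HISAT2 and featureCounts, and the builds GRCm38 and mm10. Their versions, counting mode and strand use were not given in the sources used here. FPKM values were deposited by the authors, 1 table per library. Read numbers were recovered from the FPKM steps with exon-union lengths of GENCODE M21 (22391 symbols matched, 99.6%): 96.5% to 96.7% of the values above 0 came out whole within 0.001, and 21715 genes did in all libraries.

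Values were taken as log2(FPKM + 1), and 11290 genes averaging 1 FPKM or more over the libraries were kept. They were tested with limma 3.58.1 (R 4.3.3; a linear model and trended eBayes), two-sided, with Benjamini-Hochberg adjustment over all of them and a threshold of 0.05. The log scale understates the change of low genes. When a library was left out, the filter used the remaining ones; for circEsyt2 siRNA replicate 1 the filter over all 4 libraries was also tried, chosen after seeing the data. The members, lists and tests were chosen with earlier results of these data known. Called members and the 3 most abundant tested members of each class are given with full statistics, and at most 3 called genes by smallest p from each list; 1 such gene is not reported here. Figures were drawn with matplotlib 3.10.9.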

Additional observations from a re-analysis of the deposited data

How the results depend on the processing

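As reported, limma called 1437 genes, with 2 members higher and 3 lower. A pseudocount of 0.1, median ratio scaling and quantile normalization gave the same member counts, though quantile normalization moved the members' median to −0.15. With no filter on low values limma called 1006 of 20745 genes, with 1 member higher and 3 lower. The fit by eBayes without a trend called 577 genes and 0 members in either direction. Voom on recovered read numbers called 4 members higher and 7 lower. Over all 10820 genes it tested, voom called 1985 (18.3%), 874 higher and 1111 lower. Leaving out 1 library gave 0 to 1027 genes, 0 to 3 members higher, 0 to 1 lower and a median of −0.19 to 0.10. An alternative chosen after seeing the data, without circEsyt2 siRNA replicate 1 but with the filter kept over all 4 libraries, called 0 genes (2990 at an unadjusted p under 0.05), 0 members higher and 0 lower, with a median of 0.10; the cause was not tested. Among members that were not called, the log2 fold change changed sign in some fits without 1 library, where it ranged from −0.19 to 0.49 for Itga11, −0.24 to 0.12 for Actn1, −0.0073 to 0.24 for Itgb5, −0.50 to 0.048 for Lims2 and −0.033 to 0.20 for Zyx. The replicate numbers share only a number: the differences between replicates correlated at −0.05 between groups, over genes. With the replicate block limma called 1008 genes, 1 member higher and 3 lower, and the call of Itgb1 was lost (adjusted p = 0.0548).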
